A study of Mus musculus with 14 samples.

Results

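The genes described are Yap1 and Tead1, their regulators Lats2, Ajuba and Amotl2, and the targets Ccn1, Ccn2, Ankrd1, Axl and Dock5. They were taken by name: every probe set whose platform annotation names 1 of these genes and no other was used, which gave 24 of the 45037 probe sets that are not controls, for 10 of 18193 genes. Lats2 had 6 of them, Ccn1 4, Dock5 3, Ankrd1, Axl, Tead1 and Yap1 2 each, and Ccn2, Amotl2 and Ajuba 1 each. A probe set annotated to both Lats2 and Xpo4 was left out. The genes were chosen with earlier results of these data known, so counts of calls among them describe the arrays and test nothing.

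The arrays measured SCp2 cells, an established line of mouse mammary epithelial cells, grown in DMEM with 2% fetal calf serum in 35 mm dishes. Cells were plated at the densities labelled 50K, 100K and 250K in experiment A, and 25K, 50K, 100K and 250K in experiment B, and kept for 3 days as controls or with MMP3 (MMP-3, stromelysin-1), a secreted protease that cuts matrix proteins and E-cadherin. A group of 3 control and 3 MMP3 arrays thus made up A, and 4 control and 4 MMP3 arrays made up B, with 1 array for each agent and density in each experiment. The dose of MMP3 is not given in the sources used here, and whether dishes came from separate cultures is not stated, so p-values cover only the variation among the dishes at hand, which may be technical.

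In the Hippo pathway, the kinases MST1 and MST2 activate LATS1 and LATS2, which phosphorylate the coactivators YAP and TAZ and keep them out of the nucleus. When that brake is off, YAP and TAZ bind TEAD transcription factors and raise a set of target genes, of which Ccn1 (Cyr61), Ccn2 (Ctgf) and Ankrd1 are the ones most often used as readouts. In epithelial cells the pathway is known to respond to crowding, cell shape, adhesion and tension in the actin cytoskeleton, so plating density and loss of cell contacts are classic settings for it. LATS2 and AMOTL2 restrain YAP and are encoded by target genes, a negative feedback loop.

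Values are log2 expression relative to the median of the same probe set over the 14 arrays. A value of 1 is therefore a doubling over that median, and no value tells how abundant a transcript was, nor could epithelial markers be checked by level. In RNA from a whole dish, fewer cells expressing a gene and less RNA per cell cannot be told apart. Of the 24 probe sets, 21 varied enough over the arrays to be tested (an SD of at least 0.049, as for 27022 probe sets in all). The 3 others stayed close to their median on all 14 arrays: the Lats2 probe set 1419679_at lay between -0.04 and 0.04, Lats2 1426156_at between -0.03 and 0.07, and Dock5 1439129_at between -0.05 and 0.08.

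Several features of the arrays bear on what follows. The MMP3 100K array of B stood apart, with an SD over probe sets of 0.869 against 0.232 to 0.412 on the other 13, and with actin control probe sets 0.654 higher at the 3′ than at the 5′ end of the transcript. In A, the same relative difference for Gapdh, a sign of RNA quality between arrays, was -0.03 to 0.03 on control and 0.04 to 0.17 on MMP3 arrays. The 18S control probe set was at 0.45 to 0.83 and 0.92 to 1.15. The Gapdh and 18S ranges do not overlap between the agents, while those of the actin difference do (-0.05 to 0.11 and -0.14 to 0.09). In B all 3 overlapped between the agents. The 18S probe set also separated the experiments: in B it was at -0.41 to 0.01 on control and -0.65 to -0.01 on MMP3 arrays, below every array of A. Among markers of other cell types, none of 2 tested fibroblast, 3 macrophage and 1 adipocyte genes passed the test for MMP3 in A, and none of 4 endothelial genes varied enough to be tested; of 6 tested epithelial markers 4 were higher (Cldn4 by 2.49, Ocln by 2.45, Epcam and Cdh1) and Krt5 was lower (-1.03). In B none of these markers passed either. The macrophage gene Cd68 was at 4.61 on MMP3 100K of B, 1.84 on control 250K of A and 1.82 on MMP3 250K of B, the 3 arrays on which the genes described here were most often lowest, and at 0.87 or less on the other 11. The other tested macrophage genes did not follow Cd68. On the same 3 arrays, in that order, Csf1r was at 0.03, -0.005 and -0.01 and Lyz2 at 0.01, -0.02 and -0.02. The fibroblast gene Pdgfra differed by -0.90 in A and 1.52 in B, opposite in sign to most of the genes described here. The other tested fibroblast gene, Dcn, differed by -0.01 in A and 0.25 in B. The part of these measures in the results below was not tested.

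TEAD factors bind the element GGAATG, also read as CATTCC on the other strand, so the stretch before the start site was searched for it. RefSeq promoters (GRCm38.p6, the 250 bases before a transcript start) were at hand for 7 of the 10 genes, as 8 promoters. GGAATG on either strand was found in 6 of the 8, from all of the 7 genes except Lats2; 12.6% of 32851 promoters of the same length hold it, and 14.4% of 27025 genes have such a promoter. The AP-1 element TGANTCA, often found beside TEAD elements in enhancers, was in none of the 8 and in 6.75% of all. A match is only a match of letters.

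The promoters of Ccn1 and Ankrd1 are shown because these are the best known readouts of YAP and TEAD with a RefSeq promoter here. Ccn1 lies on the minus strand, and its stretch is chr3:145649986-145650235. Ankrd1 also lies on the minus strand, with chr19:36119845-36120094. Both are read 5′ to 3′ towards the start, with the 6-base match in capitals. In Ccn1 the match sits 103 to 98 bases before the start and reads as CATTCC; in Ankrd1 there are 2, at 210 to 205 and 123 to 118 bases, both reading as GGAATG.
Ccn1: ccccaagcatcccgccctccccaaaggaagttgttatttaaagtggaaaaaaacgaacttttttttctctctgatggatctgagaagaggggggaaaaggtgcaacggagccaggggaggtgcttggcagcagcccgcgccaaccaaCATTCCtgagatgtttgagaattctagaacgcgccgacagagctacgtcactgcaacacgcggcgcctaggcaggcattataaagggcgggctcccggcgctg
Ankrd1: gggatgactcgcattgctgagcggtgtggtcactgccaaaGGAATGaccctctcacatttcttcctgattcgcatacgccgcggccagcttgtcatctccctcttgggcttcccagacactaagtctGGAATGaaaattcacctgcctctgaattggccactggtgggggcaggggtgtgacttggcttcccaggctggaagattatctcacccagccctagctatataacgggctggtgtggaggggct

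All 8 matches are set side by side below in 26 bases each, turned so that each reads GGAATG (capitals), which puts the same flanks in the same place. The Amotl2, Ajuba and Ccn1 matches were turned; the others stand as the gene is read. The Amotl2 window lies wholly, and those of Axl and Yap1 in part, inside the span that RefSeq gives the gene.
Ccn1, 103 to 98 bases before the start: aaacatctcaGGAATGttggttggcg
Amotl2, 65 to 60 bases before the start: tgctatgccaGGAATGtgagagtttc
Ankrd1, 210 to 205 bases before the start: cactgccaaaGGAATGaccctctcac
Ankrd1, 123 to 118 bases before the start: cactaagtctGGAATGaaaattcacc
Ajuba, 186 to 181 bases before the start: ggggcactgtGGAATGtatccatcaa
Ajuba, 164 to 159 bases before the start: gtttacagttGGAATGcgcggagggg
Axl, 233 to 228 bases before the start: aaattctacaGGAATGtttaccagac
Yap1, 141 to 136 bases before the start: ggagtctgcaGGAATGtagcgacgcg

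In experiment A, most of these genes were higher with MMP3, and none was called lower. Ccn2 was 17.0-fold higher, Ccn1 9.24- to 15.1-fold by its 4 probe sets, Amotl2 5.84-fold, Dock5 5.62-fold and Ankrd1 4.03-fold. The Ankrd1 probe set lay within 0.05 of 0 on 8 of the 14 arrays, the control arrays of A among them, and may be at background there. With limma and Benjamini-Hochberg adjustment over the 27022 probe sets, 12 of the 21 passed an adjusted p of 0.05, all 12 higher. They came from 8 of the 10 genes, a gene being counted when any of its probe sets passed. Ajuba and Yap1 did not pass. Over all probe sets 19.9% passed, 11% higher and 8.91% lower. By 1 probe set a gene, that of largest SD, 6 of the 10 genes were called higher, against 13.8% of 11812 genes. The median difference over the 21 was 1.26 on the log2 scale, and -0.03 over all 27022. The fit to A has 2 residual degrees of freedom, and with any 1 of its 6 arrays left out no probe set of the 27022 passed, these included.

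**Figure D1:**
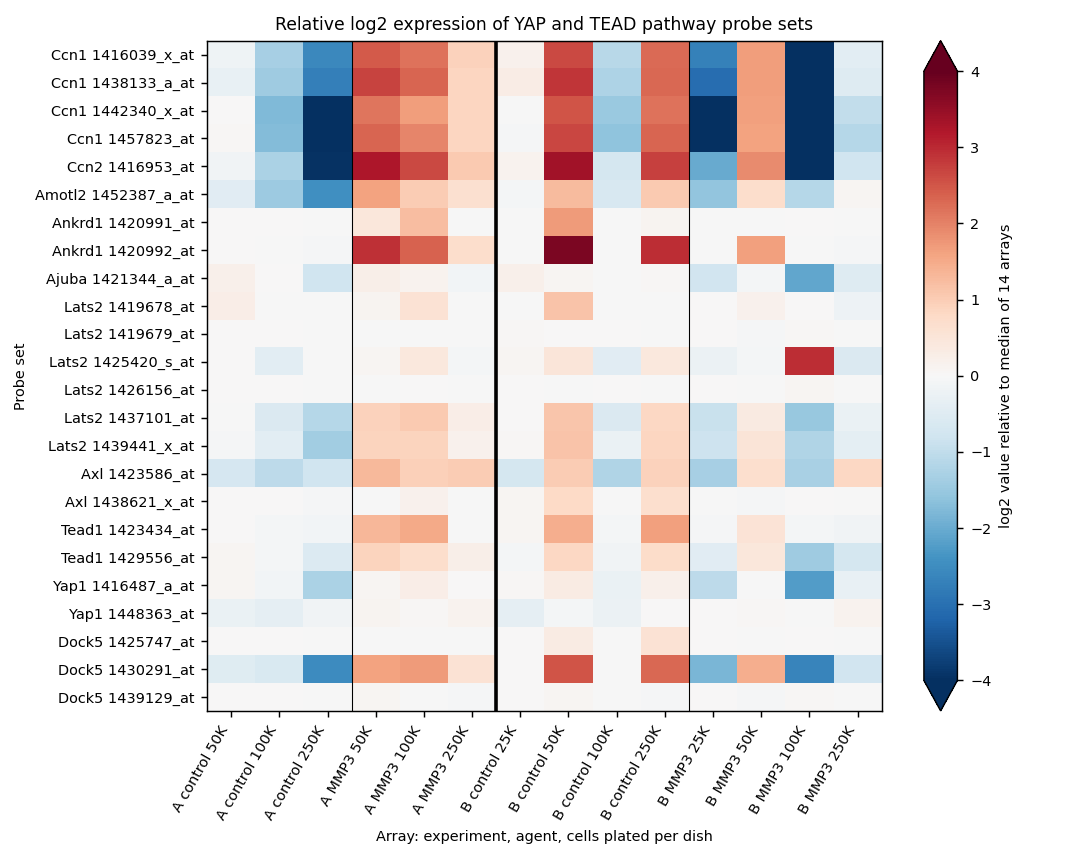
Relative log2 value (colour, red above and blue below the median of the 14 arrays, saturating at 4 and -4) of the 24 probe sets (rows) on each of the 14 arrays (columns, by experiment, agent and density label). In A the Ccn1, Ccn2, Amotl2 and main Dock5 rows are blue or pale on control and red on MMP3 arrays; in B the control 50K and 250K and the MMP3 50K arrays are red and the MMP3 100K array is the darkest blue.

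Ccn2 encodes a secreted matricellular protein that binds integrins and growth factors, and it showed the widest span of the 10 genes. On the control arrays of A its values were -0.14 at 50K, -1.27 at 100K and -3.95 at 250K. On the MMP3 arrays they were 3.22, 2.64 and 1.06. The lowest MMP3 array was thus above the highest control array, and both series fell with density. Such a separation of the agents was common in A. MMP3 arrays all lay above control arrays for 13 of the 21 probe sets and for 16.7% of all 27022. The reverse order held for none of the 21 and for 25.2% of all. The means were -1.79 ± 1.96 (SD, n = 3) and 2.31 ± 1.12 (SD, n = 3), with the density trend inside those SDs, and the fitted difference was 4.09 with SE 0.23 (limma adjusted p = 0.0152).

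In experiment B the same probe set ran the other way. Control arrays were at 0.14 (25K), 3.35 (50K), -0.69 (100K) and 2.73 (250K), and MMP3 arrays at -2.02, 1.89, -7.14 and -0.79. The MMP3 array was the lower one at each of the 4 densities, with differences of -2.15, -1.46, -6.46 and -3.52, but the groups overlap, and 50K and 250K were above 25K and 100K under both agents. The fitted difference was -3.40 with SE 2.21 (limma adjusted p = 0.638), an interval of -8.95 to 2.15.

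Ccn1 encodes the sister protein of Ccn2 and is an immediate target of YAP and of serum response factor. Its 4 probe sets moved alike. By 1442340_x_at the control arrays of A were at 0.02, -1.76 and -5.25 and the MMP3 arrays at 2.15, 1.67 and 0.87, from 50K to 250K. By 1416039_x_at they were at -0.17, -1.34 and -2.56, and 2.45, 2.18 and 0.92. The groups did not overlap by either of these probe sets, with MMP3 above, as in 16.7% of all probe sets. The spread between probe sets was widest on the lowest arrays. The fitted differences of the 4 were 3.21, 3.45, 3.89 and 3.91 (SE 0.155 to 0.185, limma adjusted p from 0.0141 to 0.0145). With density fitted as 3 separate levels, 1442340_x_at and 1457823_at no longer passed (0.0959 and 0.0776).

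In B, 1442340_x_at was at -0.02, 2.52, -1.48 and 2.18 on control and -4.95, 1.65, -5.24 and -0.98 on MMP3 arrays, from 25K to 250K. MMP3 was lower in every pair, as for Ccn2, and the 50K and 250K control arrays were again the highest. The fitted difference was -3.18 with SE 1.96 (limma adjusted p = 0.626).

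Ankrd1 encodes a repeat protein of muscle and stressed cells that is a standard YAP readout. Its probe set 1420992_at was at 0.00, -0.01 and -0.03 on the control arrays of A and at 2.91, 2.37 and 0.70 with MMP3. In B it was at -0.01, 3.77, -0.03 and 2.97 on control arrays and 0.00, 1.65, 0.00 and -0.04 with MMP3. It lay within 0.05 of 0 on 8 of the 14 arrays, so there it showed no difference, and it was high on 6: the 3 MMP3 arrays of A, control 50K and 250K of B, and MMP3 50K of B. The difference in A was 2.01 with SE 0.16 (limma adjusted p = 0.0167); with density fitted as 3 separate levels the adjusted p was 0.107. The other probe set, 1420991_at, was within 0.05 of 0 on 10 arrays, reached 1.23 on MMP3 100K of A and 1.70 on control 50K of B, and did not pass in A (0.56, limma adjusted p = 0.344).

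Axl encodes a receptor tyrosine kinase of the TAM family whose ligand is GAS6. By 1423586_at it was at -0.66, -1.05 and -0.78 on control and 1.29, 0.95 and 1.01 on MMP3 arrays of A, a clear step with little change over density. In B it was at -0.69, 1.02, -1.20 and 0.92 on control and -1.33, 0.66, -1.29 and 0.83 with MMP3, so that 50K and 250K were high and 25K and 100K low under both agents, with pair differences of -0.64 to -0.08. The difference was 1.91 with SE 0.15 in A (limma adjusted p = 0.0171, and 0.0509 with every probe set kept) and -0.29 in B (limma adjusted p = 0.888). The second probe set, 1438621_x_at, rose over 0.2 on only 2 arrays, 0.81 on control 50K and 0.67 on control 250K of B, and was not called (0.04 in A).

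Dock5 encodes an exchange factor for the small GTPase Rac. By 1430291_at it was at -0.48, -0.60 and -2.52 on control and 1.62, 1.69 and 0.56 on MMP3 arrays of A. In B it was at 0.00, 2.52, 0.00 and 2.29 on control and -1.81, 1.45, -2.63 and -0.78 on MMP3 arrays. The difference in A was 2.49 with SE 0.33 (limma adjusted p = 0.0301, and 0.0903 with every probe set kept), and all 4 pairs of B were lower with MMP3. A second probe set, 1425747_at, was within 0.05 of 0 on 12 arrays and at 0.32 and 0.58 on control 50K and 250K of B; its difference in A was -0.01.

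Amotl2 encodes an angiomotin-like protein of cell junctions that binds YAP and holds it in the cytoplasm. The control arrays of A were at -0.45, -1.46 and -2.45 and the MMP3 arrays at 1.61, 1.02 and 0.64. The groups were apart at all densities, with means of -1.45 ± 1.0 (SD, n = 3) and 1.09 ± 0.49 (SD, n = 3). The fitted difference, 2.54 with SE 0.09, had the smallest p of the 21 probe sets (limma adjusted p = 0.0141). In B the control arrays were at -0.07, 1.26, -0.64 and 1.05 and the MMP3 arrays at -1.58, 0.72, -1.15 and 0.07, with pair differences of -1.51 to -0.51, and the fitted difference was -0.89 with SE 0.70 (limma adjusted p = 0.692).

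Lats2, the kinase that phosphorylates YAP and is itself a YAP target, was read by 4 tested probe sets that did not behave alike. By 1437101_at the control arrays of A were at -0.02, -0.59 and -1.15 and the MMP3 arrays at 0.92, 1.05 and 0.26. By 1439441_x_at they were at -0.04, -0.44 and -1.38, and 0.89, 0.88 and 0.16. Both were higher with MMP3, by 1.33 and 1.26 (limma adjusted p = 0.0259 and 0.0233, and 0.0747 and 0.0669 with every probe set kept), and on the MMP3 100K array of B both were low, at -1.50 and -1.21.

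On that same array 1425420_s_at was at 2.94, its highest value, while its other 13 arrays lay between -0.59 and 0.50. It was not called in A (0.27, limma adjusted p = 0.432), and its SD, the largest of the Lats2 probe sets, rests on that array. The fourth, 1419678_at, was within 0.05 of 0 on 8 arrays and highest on control 50K of B, at 1.14. What separates these probe sets on the transcript was not analysed here.

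Ajuba encodes a LIM protein that binds LATS kinases and limits their action on YAP. It was at 0.21, 0.02 and -0.78 on control and 0.23, 0.16 and -0.11 on MMP3 arrays of A, where the groups overlap and the difference of 0.28 did not pass (limma adjusted p = 0.153). In B it was at 0.20, 0.08, -0.02 and 0.06 on control and -0.77, -0.08, -2.09 and -0.52 on MMP3 arrays. Every MMP3 array of B was below every control array, as in 4.83% of all probe sets, and Ajuba was the only 1 of the 21 for which this held; the reverse order, seen for 4.43% of all, held for none of the 21. The difference there was -0.94 with SE 0.46 (limma adjusted p = 0.550).

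Yap1 encodes the coactivator itself, whose activity is set mainly by phosphorylation and location, which arrays do not see. Its 2 probe sets disagreed. By 1416487_a_at it was at 0.07, -0.11 and -1.26 on control and 0.07, 0.28 and 0.03 on MMP3 arrays of A, and at 0.05, 0.32, -0.28 and 0.22 on control and -1.03, -0.03, -2.22 and -0.28 on MMP3 arrays of B. The pairs were thus higher with MMP3 in A, by only 0.003 at 50K and by 1.29 at 250K, and lower in all 4 of B; neither difference passed (0.56 and -0.97, limma adjusted p = 0.115 and 0.593).

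By 1448363_at Yap1 varied much less, and MMP3 was the higher array in all 7 pairs, which was seen for no other of the 21 and for 7.55% of all probe sets counted in either direction. The control arrays of A were at -0.28, -0.36 and -0.15 and the MMP3 arrays at 0.12, 0.05 and 0.15. In B they were at -0.36, -0.07, -0.23 and 0.03, and 0.01, 0.06, -0.01 and 0.13. The difference was 0.37 in A (limma adjusted p = 0.0520, and 0.0432 with density as separate levels), 0.21 in B (0.558) and 0.28 with SE 0.07 over both experiments (0.0553). Over both experiments it passed without control 50K of B (0.0261), without MMP3 100K of B (0.0212) and with density as separate levels (0.0465).

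Tead1 encodes a TEAD factor, the DNA-binding partner of YAP. By 1429556_at it was at 0.07, -0.09 and -0.54 on control and 0.90, 0.70 and 0.23 on MMP3 arrays of A, a difference of 0.80 with SE 0.07 that passed (limma adjusted p = 0.0175). By 1423434_at it was at 0.01, -0.07 and -0.10, and 1.34, 1.53 and -0.01, and the difference of 1.01 did not pass (0.0973); at 250K the MMP3 array was no higher than the 50K control. In B 1423434_at was at 1.45 and 1.64 on control 50K and 250K, 0.53 on MMP3 50K and between -0.15 and 0.07 on the other 5 arrays. The other probe set had -0.07, 0.82, -0.15 and 0.75 on control and -0.44, 0.45, -1.42 and -0.69 on MMP3 arrays, lower with MMP3 in each pair.

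**Figure D2:**
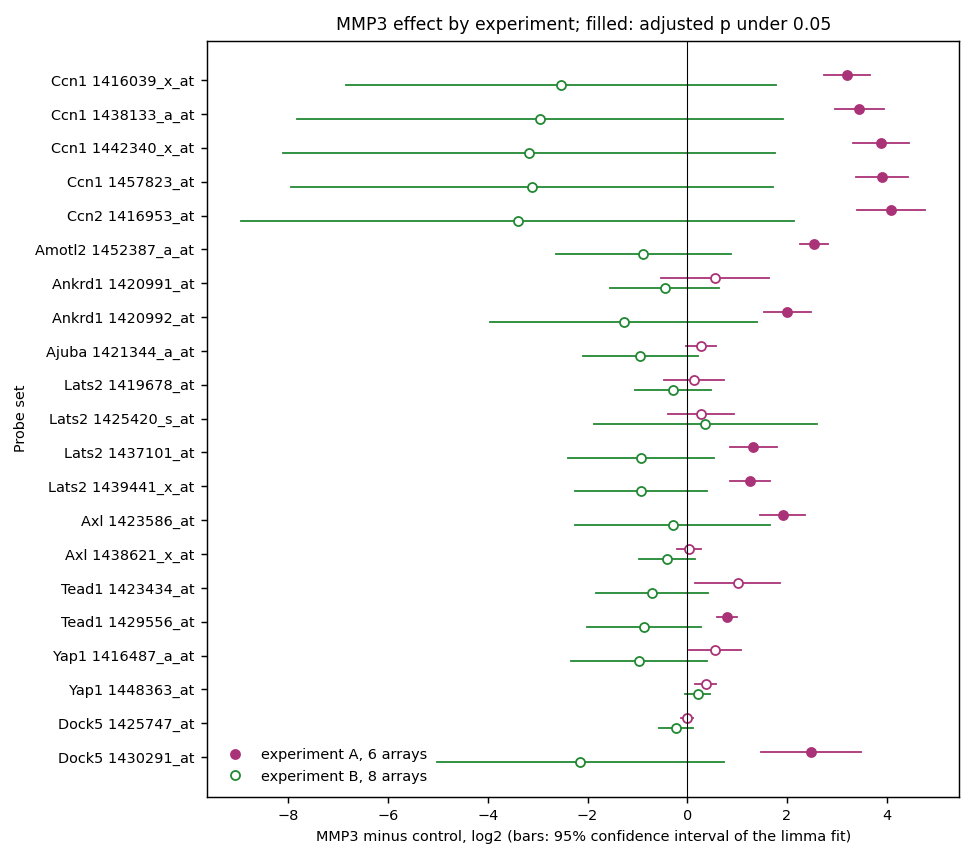
Fitted MMP3 minus control difference on the log2 scale (x axis) for the 21 tested probe sets (y axis) in experiment A (6 arrays) and experiment B (8 arrays), with 95% confidence intervals of the limma fit as bars; filled points passed an adjusted p of 0.05. The 12 filled points all belong to A and lie between 0.80 and 4.09, and every interval of B includes 0.

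Set over all 21 probe sets, B gave no call: 0 of 27022 passed (0% of all), although 2864 had an unadjusted p under 0.05 in limma, none of them of these genes. The differences of the 21 were negative for 19, with a median of -0.92 against 0.02 over all 27022. Only Yap1 1448363_at and Lats2 1425420_s_at were positive. The intervals are wide; that of Ccn1 1442340_x_at ran from -8.11 to 1.76 and that of Amotl2 from -2.64 to 0.87. Without the MMP3 100K array that stood apart, the differences of B were -1.66 for Ccn2, -2.14 for Ccn1, -1.55 for Dock5, -1.12 for Ankrd1, -0.63 for Amotl2, -0.54 for Ajuba, -0.51 for Yap1 1416487_a_at and 0.10 for Axl, again with no call.

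Counted by pairs, 14 of the 21 probe sets were higher with MMP3 at all 3 densities of A and lower at all 4 of B, and 5.77% of all 27022 did the same. They were those of Ccn1 (all 4), Ccn2, Amotl2, Ajuba and both of Tead1, 1 each of Axl, Dock5 and Yap1, and the Lats2 pair called in A. Some of these pairs hardly differed: Tead1 1423434_at by -0.002 at 100K of B, and at 50K of A Yap1 by 0.003 and Ajuba by 0.02. The difference between the 2 effects was tested in 1 fit to the 12 arrays at 50K, 100K and 250K, where 0 of 27022 passed (0%) and 3396 had an unadjusted p under 0.05, among them 12 of the 21, all lower in B. Ccn2 differed by -7.90 with SE 2.90, Dock5 by -4.75 with SE 1.39 and Amotl2 by -3.22 with SE 0.88, each at a limma adjusted p of 0.396. Without MMP3 100K of B they were -5.29, -3.72 and -2.69 (0.369). Without control 100K of B, 2.06% of all probe sets passed (556), and 3 of the 21 were among them: Ankrd1 1420992_at (-4.87), Amotl2 (-3.84) and Axl 1438621_x_at (-0.80).

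Fitted over both experiments with the experiment as a block, none of the 21 passed, against 2.18% of all probe sets (589), and 1 had an unadjusted p under 0.05, Yap1 1448363_at. For Ccn2 the pooled difference was -0.19 with SE 1.72, with an interval of -3.98 to 3.61; the separate fits gave 4.09 in A and -3.40 in B.

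Plating density is the other factor of the study, and in A most of these genes were lower on denser dishes. From 50K through 100K to 250K, 10 of the 21 probe sets fell step by step under both agents, as did 8.16% of all 27022: the 4 of Ccn1, those of Ccn2, Amotl2 and Ajuba, and 1 each of Ankrd1, Lats2 and Tead1. For Ankrd1 the control steps were of 0.02 or less. Per doubling of plated cells the slope was -1.42 with SE 0.10 for Ccn1 1442340_x_at, -1.30 with SE 0.12 for Ccn2, -0.69 for Dock5, -0.63 for Amotl2 and -0.49 for Ankrd1. Without control 250K or MMP3 250K of A the slope of Dock5 was -0.30 or -0.42, and without MMP3 250K that of Ankrd1 was -0.28. For Axl it was -0.08 and for Yap1 1448363_at 0.04.

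No slope of A passed: 0 of 27022 (0%), with 7287 at an unadjusted p under 0.05 in limma, among them 13 of the 21, all 13 falling, with adjusted p from 0.115. In B, 17 of the 21 slopes were positive with a median of 0.06, 0 of 27022 passed (0%), and 971 had an unadjusted p under 0.05, none of these genes. Over both experiments neither the slope (0 of 27022, 0%; 2853 at an unadjusted p under 0.05) nor the change of the MMP3 effect with density (0 of 27022, 0%; 582) gave a call, and none of the 21 was among those unadjusted values.

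**Figure D3:**
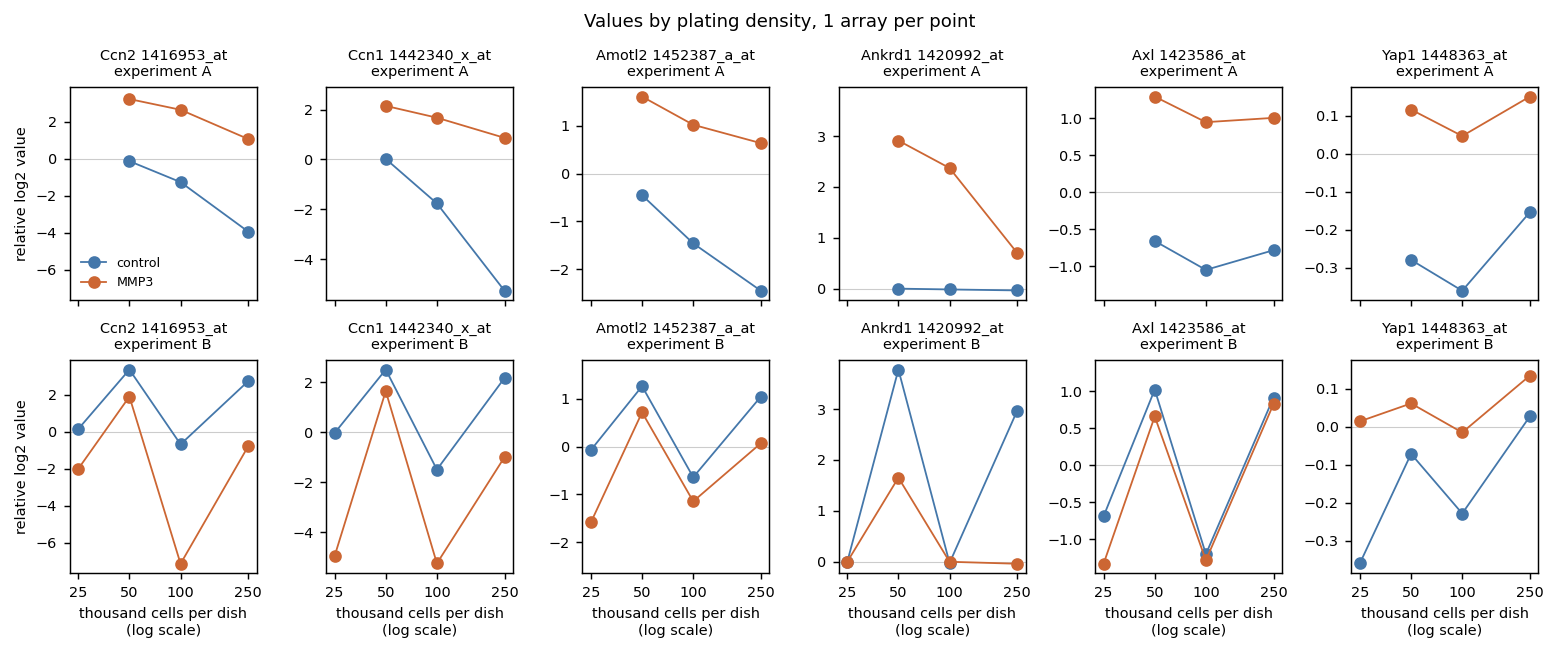
Relative log2 value (y axis) against the plating density as labelled, in K cells per dish (x axis, log scale) for 6 probe sets (columns) in experiment A (top) and B (bottom), with 1 array per point, control in blue and MMP3 in orange. In A the Ccn2, Ccn1 and Amotl2 lines fall with density and the orange line lies above the blue; in B most lines zigzag with peaks at 50K and 250K (the Ankrd1 line of MMP3 peaks at 50K alone), and orange lies below blue except for Yap1 1448363_at and, at 25K and 100K, Ankrd1.

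By array, control 50K of B was the highest of the 14 for 13 of the 21 probe sets, MMP3 50K of A for 4 and control 250K of B for 2. The lowest was MMP3 100K of B for 8, MMP3 250K of B for 6 and control 250K of A for 4. The median of the 21 was 1.15 on control 50K of B and -1.29 on MMP3 100K of B. The array that was most often highest thus carries the control label, and the one most often lowest is the array that stood apart. The same counts over all tested probe sets were not made, so these do not show anything particular to these genes.

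The antiviral gene Ifit1, which is induced by type I interferon and has no place in the Hippo pathway, takes either a high or a low value on these arrays and was set beside Ccn2 for that reason. On the control arrays of A it was at -2.91, -2.98 and -2.94 and on the MMP3 arrays at 2.83, 3.96 and 4.21. In B it was at -2.93 (25K), 3.71 (50K), -2.93 (100K) and 4.26 (250K) on control, and at -2.83, 4.53, -2.97 and 5.15 on MMP3 arrays. In A it thus followed the agent, and in B the density label. The labels were kept as given, and whether those of B are right was not tested; each MMP3 minus control value of B holds only for the arrays as labelled.

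The 6 arrays with the highest Ccn2 all had Ifit1 at 2.83 or more, in the order control 50K of B, MMP3 50K of A, control 250K of B, MMP3 100K of A, MMP3 50K of B and MMP3 250K of A. The remaining array with high Ifit1, MMP3 250K of B, had Ccn2 at -0.79, below control 25K of B (0.14) and control 50K of A (-0.14), where Ifit1 was low. The part of whatever sets Ifit1 in these values was not tested.

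**Figure D4:**
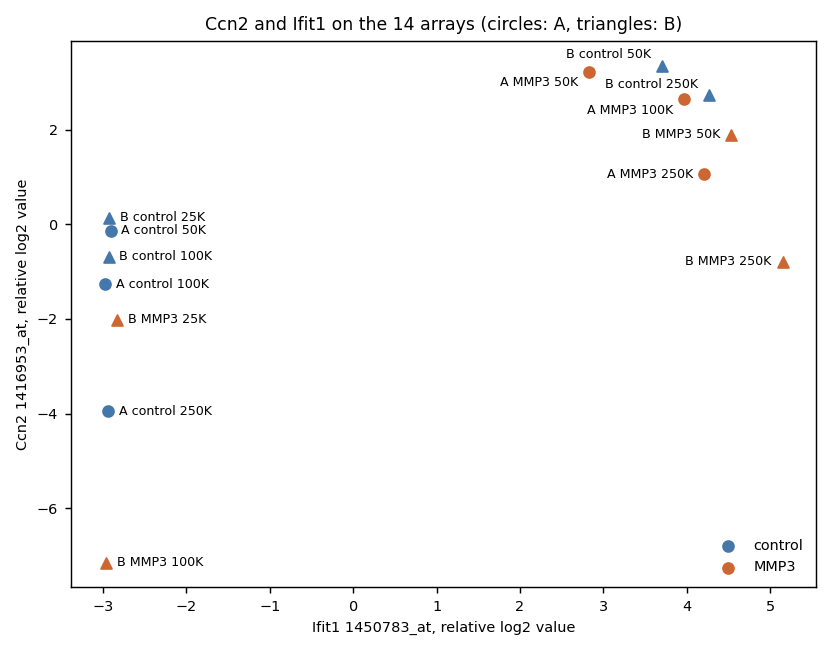
Relative log2 value of Ccn2 (y axis) against that of Ifit1 (x axis), 1 point per array, coloured by agent, circles for experiment A and triangles for B. Ifit1 lies near -3 on 7 arrays and between 2.83 and 5.15 on 7; in A the colours separate along both axes, and in B both colours occur on both sides.

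How alike the 10 genes were was described over the 14 arrays, taking for each the probe set of largest SD; the arrays share their design and the MMP3 100K array of B weighs heavily. Against Ccn2, Pearson's r was 0.947 for Dock5, 0.937 for Ccn1, 0.929 for Yap1 (1416487_a_at), 0.864 for Ajuba, 0.849 for Amotl2, 0.782 for Axl, 0.763 for Ankrd1 and 0.742 for Tead1. For the Lats2 probe set that was high on MMP3 100K of B it was -0.455. Without that array, an alternative chosen after seeing the data, r to Ccn2 was 0.644 for this Lats2 probe set, 0.977 for Dock5, 0.968 for Amotl2, 0.956 for Ccn1, 0.873 for Ankrd1, 0.862 for Yap1 and 0.727 for Ajuba. Outside the 10 genes, of 22207 probe sets searched, those nearest to Ccn2 were of Gdnf, a neurotrophic growth factor (0.993), Ints6 (0.992), Cited2, a CBP/p300-binding regulator (0.992), Lpcat1 (0.991) and Zcrb1 (0.988). Those nearest to Ccn1 were of Ptprk, a receptor phosphatase of cell contacts (0.984), Sec23b (0.982), Fam107b (0.981), Pdlim7, an actin-associated LIM protein (0.980), and G3bp2 (0.980).

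The wider pathway was read from lists of genes outside the 10, by 1 probe set a gene, that of largest SD. Over all 11812 genes so tested in A, 13.8% were called higher and 9.67% lower with MMP3, with a median difference of -0.02. Of the kinases, adaptors and upstream regulators of the Hippo pathway, 22 of 25 were tested, 10 were higher and 1 lower, with a median of 0.36. Amot, the founding angiomotin, rose by 1.32, the junctional scaffolds Wwc1 (Kibra) and Wwc2 by 1.0 and 0.79, and the Ajuba relative Wtip by 0.73. Mob1a, a cofactor of LATS, fell by 0.47 and is named, after its value was seen, as the 1 lower gene.

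Amot was high on 6 of the 14 arrays, the 3 MMP3 arrays of A among them. It was at -0.30, -0.33 and -0.03 on control and 1.16, 1.15 and 0.99 on MMP3 arrays of A, and in B at -0.61, 1.34, -0.42 and 1.29 on control and -0.04, 1.02, 0.03 and -0.09 with MMP3. The groups of A did not overlap, with MMP3 above, as in 16.7% of all probe sets. In B the 50K and 250K control arrays were the highest.

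Among the relatives and partners of YAP and TEAD, 7 of 8 were tested, and 2 were higher, none lower, with a median of 0.40. Vgll3, a TEAD cofactor, rose by 1.27 (limma adjusted p = 0.0237), and Wwtr1, which encodes TAZ, by 0.84 (0.0303). Wwtr1 was at -1.03, -0.97 and -0.21 on control and 0.04, 0.12 and 0.17 on MMP3 arrays of A, a step without the fall over density of Ccn2. Tead2 (0.26), Tead3 (0.48) and Tead4 (0.13) did not pass.

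Of 22 other published targets of YAP and TEAD, 18 were tested; 6 were higher and 2 lower, with a median of 0.18. Thbs1, the matricellular protein thrombospondin 1, rose by 3.13, Asap1 by 1.18 and Edn1 (endothelin 1) by 0.99, and Igfbp3, a binding protein of insulin-like growth factors, fell by 2.26. Thbs1 was at -0.35, -1.57 and -2.70 on control and 2.46, 1.88 and 0.44 on MMP3 arrays of A, falling with density under both agents, as Ccn2 did. On MMP3 100K of B it was at -5.65, its lowest value. Igfbp3 went the opposite way in A, at 1.18, 1.03 and 1.03 on control and -0.86, -1.38 and -1.32 on MMP3 arrays.

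Of 17 tested actin and serum response factor genes, which share several targets with YAP, 10 were higher and none lower, with a median of 0.49; Actn1 rose by 1.69, Tpm1 by 1.28, Cnn2 by 1.23 and Zyx by 1.11. Of the other CCN family members, 3 of 4 were tested and Ccn5 rose by 0.92. Of 9 tested relatives of Ajuba, Amotl2, Axl, Dock5 and Ankrd1, 3 were higher and none lower: Amot and Wtip, already counted above, and Limd1, which rose by 0.58 and is also on the first list. In B no gene of these lists passed, as for all 11812, and the medians of the 6 lists lay between -0.60 and -0.12.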

How the data were processed

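RNA of 14 dishes was measured on Affymetrix Mouse 430 2.0 arrays, from 200 ng of total RNA extracted with phenol and chloroform, per the labels. Per the submitters' processing notes, the authors used RMA (version not given in the sources used here) for the deposited log2 values. Neither the log base nor the centring is stated: log2 is RMA's base, and the values themselves show a median over the 14 arrays within 1e-06 of 0 for every probe set. That centring leaves no levels and no signal over background, so a probe set near 0 on most arrays may be at background. Higher values were taken to mean more signal, as in RMA.

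Agent, density and experiment came from the labels, and the experiment letter named the replicate. Symbols came from the platform annotation, updated through Entrez identifiers for 34741 of 34945 probe sets with 1 symbol; 932 had several, 9160 none. The genes and lists were chosen with earlier results of these data known. Genes were named by rule: all 10 genes, up to 4 called genes a list with the largest change in A, and the 5 probe sets most like Ccn2 and Ccn1. Mob1a, Tead2, Tead3, Tead4, Ifit1 and the markers of cell types were named outside this rule.

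Differences were tested with limma 3.58.1 under R 4.3.3 (lmFit, eBayes, two-sided, Benjamini-Hochberg over 27022 probe sets, threshold 0.05), on probe sets with an SD at or above the 40th percentile (0.049), a filter on measured values. Models held agent, centred log2 density and their product, plus experiment as a replicate block over both. Experiments are also given apart, because earlier results of these data had shown differences between them. The difference between experiments was fitted on 12 arrays with agent, log2 density, experiment, and agent by experiment. The block is part of the labelled design. Deviations from group means of arrays with the same letter correlated on average at 0.05 (range -0.65 to 0.64, 30 pairs). Each group used held 1 array of each letter, so the pairs of B repeat the values of those of A. The fits were also run on simulated data with independent normal noise and effects put in. Those data held no array apart from the others, so they do not bear on the calls made here. Promoters came from RefSeq tables (GRCm38.p6), which held none for Ccn2, Tead1 and Dock5. Alternatives tried were no filter, 1 probe set per gene, a robust prior variance, density as a factor, no block, matched pairs as blocks, and each array left out.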

Additional observations from a re-analysis of the deposited data

Results flagged for a closer look

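For 8 of the 10 genes, by the probe set of largest SD, the MMP3 array was higher than its control at all 3 densities of A and lower at all 4 of B. The share over all genes was not computed. Among tested probe sets it was 14 of 21, against 5.77% of all 27022. The mean difference was 4.09 in A and -3.40 in B for Ccn2, 3.89 and -3.18 for Ccn1, and 2.49 and -2.14 for Dock5. For Amotl2 it was 2.54 and -0.89, and for Axl 1.91 and -0.29. For the factors themselves it was 1.01 and -0.71 (Tead1, with only -0.002 at 100K in B) and 0.56 and -0.97 (Yap1, with 0.003 at 50K in A). For Ajuba it was 0.28 and -0.94, with 0.02 at 50K in A. The difference between the experiments was tested at the densities that both share, and none of these 8 probe sets passed (limma adjusted p from 0.396). Second probe sets of 3 of these genes did not show the pattern. Yap1 1448363_at was higher with MMP3 in all 4 pairs of B. Axl 1438621_x_at was higher in 2 of 3 pairs of A and 1 of 4 of B, and Dock5 1425747_at in 0 of 3 and 1 of 4. Each agent and density had at most 2 arrays, too few to look for an array far from the others of its group.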

How the results depend on the processing

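In A, the 12 calls became 8 of 24 with every probe set kept (4.11% of all called; Axl, Dock5 and both Lats2 probe sets were lost), 12 with a robust prior variance (17.2% of all), 10 with density as a factor (11.6%), and 6 of 10 genes with 1 probe set per gene (25.1%). With 1 array left out the count was 0 in every case, as over all probe sets, with 1 residual degree of freedom, while the differences kept their sign (Ccn2 from 3.65 to 4.40). Over both experiments the count of 0 became 1 with density as a factor (2.0% of all called) and lay between 0 and 1 with 1 array left out; it was 1 without control 50K of B (4.81% of all) and without MMP3 100K of B (8.45%). Without the replicate block it stayed at 0 (0 over all probe sets, against 589 with it), and it was 0 with matched pairs as blocks (3 over all). The difference between experiments gave 0 to 3 calls with 1 array left out, the 3 being without control 100K of B (2.06% of all). In B, and for the slopes and the agent by density term, no alternative gave a call.

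Some signs changed when 1 array was left out, in each case with no call; the values are of the probe set of largest SD. In B, Axl ran from -0.76 to 0.13 and Lats2 from -0.46 to 1.26. Over both experiments the ranges were -1.02 to 0.995 for Ccn2, -1.14 to 0.79 for Ccn1, -0.24 to 0.65 for Ankrd1, -0.17 to 0.33 for Tead1, -0.71 to 0.41 for Dock5 and -0.11 to 0.60 for Lats2. The slope in A ran from -0.253 to 0.0432 for Axl, -0.26 to 0.17 for Lats2 and -0.603 to 0.0728 for Tead1, and the difference between experiments from -0.77 to 1.08 for Lats2. The negative Lats2 values in B and in the difference came without MMP3 100K of B. The number of arrays, and values without a level or background, limit all of this; other causes were not tested.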
